A study of Mus musculus with 10 samples.

Results

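Of the 7697 features tested in quadriceps muscle of 5 inbred mouse strains, 74 belong to the histocompatibility complex or to leukocyte surface molecules by their symbol. The rule reads the symbol alone. A symbol that starts with H2- was carried by 5 features, 1 was B2m, 8 started with C1q, 6 with Ly6, and 54 with Cd and a digit. The 74 features stand for 70 gene symbols, since Cd44, Cd8a, Cd55 and Cd55b were each measured by 2 oligonucleotides, which are told apart here by their GenBank entries. The names were taken as they stand in the annotation of the array, so a few members share only the prefix: H2-Ke6 is a dehydrogenase gene that lies in the H2 region, C1qbp encodes a mitochondrial protein and Cd2ap an adaptor of the cytoskeleton. Features for the classical genes H2-K and H2-D, for class II chains and for Tap1, Tap2 and Tapbp were not analysed here.

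The 10 mice were males killed at 8 weeks of age, 2 of each strain: CBA/CaOlaHsd (CBA, H2 haplotype k, Ly6.1), DBA/2OlaHsd (DBA, haplotype d, Ly6.2), BALB/cOlaHsd (BALB, haplotype d, Ly6.1), C57Bl/10ScSnOlaHsd (BL10, haplotype b, Ly6.2) and C57Bl/6JOlaHsd (BL6, haplotype b, Ly6.2). None was treated or carried an engineered allele. The haplotypes are those known for these strains and were not typed in the animals. RNA of each animal was hybridised once in Cy5 and once in Cy3 against an animal of another strain on spotted oligonucleotide arrays with duplicate spots. The values of 2 of the 10 arrays, labelled BL6 2 against CBA 1 and BALB 1 against CBA 2 (strain, then animal), are identical at every spot, so both were left out and 8 arrays remain. On these, 5 arrays set a d animal against a b animal, 2 set CBA against BL10 with CBA in Cy5 on both, and 1 set DBA 2 against BALB 1. A CBA difference therefore rests on the dye effect estimated from the other arrays, and BL10 and BL6 were compared through the DBA and BALB animals that they share. Within an array, the log2 difference of duplicate spots had an SD of 0.197 to 0.465, and the spots correlated at r of 0.645 to 0.853.

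The H2 complex encodes class I molecules, which show peptides from inside the cell to CD8 T cells and need beta-2-microglobulin (B2m) at the cell surface, and class II molecules, which show peptides from outside to CD4 T cells. Its classical genes differ between inbred strains as sets of linked alleles, the haplotypes, and the Q and M genes downstream of them encode nonclassical class I molecules. Resting muscle fibres carry little class I, and most leukocyte transcripts of a whole muscle come from resident macrophages and other cells between the fibres. In such bulk samples, fewer cells of a type and less RNA per cell cannot be told apart. Ratios hold no absolute level, so the tissue label could not be checked against muscle markers.

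The promoters of B2m and H2-Q2 are shown because these genes, a class I light chain and a nonclassical class I heavy chain, both had CBA and BL10 as the top strains and BL6 as the lowest in their fitted levels, although neither passed the test. Both windows run from 250 bases before to 50 after the transcription start in RefSeq on GRCm38.p6, B2m at chr2:122147437-122147736 and H2-Q2 at chr17:35342057-35342356, both on the plus strand. Capitals mark the core of an interferon-stimulated response element (TTTCNNTTTC) and the CCAAT box, each searched on both strands, and these matches do not overlap.
B2m: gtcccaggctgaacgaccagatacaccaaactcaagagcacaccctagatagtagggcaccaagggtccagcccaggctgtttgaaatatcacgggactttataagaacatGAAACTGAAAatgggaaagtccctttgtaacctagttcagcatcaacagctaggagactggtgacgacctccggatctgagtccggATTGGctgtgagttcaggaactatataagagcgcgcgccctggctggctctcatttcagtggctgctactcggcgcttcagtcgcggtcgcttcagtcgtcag
H2-Q2: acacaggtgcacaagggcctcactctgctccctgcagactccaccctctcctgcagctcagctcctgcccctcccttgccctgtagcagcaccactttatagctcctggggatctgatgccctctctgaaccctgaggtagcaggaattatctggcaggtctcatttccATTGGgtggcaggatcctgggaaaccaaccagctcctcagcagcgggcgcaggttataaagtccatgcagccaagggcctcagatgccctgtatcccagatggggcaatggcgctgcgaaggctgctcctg
The B2m window holds 1 match to the response element core, on the minus strand, and 1 CCAAT box. The H2-Q2 window holds 1 CCAAT box, and the letters of the response element core are not in it. The core is present in 3.44% and the CCAAT box in 37.4% of all 32851 promoter windows of this length. A window was given for 45 of the 70 member symbols.

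No member passed the threshold, an FDR of 10% over all 7697 features, in any comparison. Between the 5 strains (limma's moderated F) the share past it was 0.130% of all features and 0 of 74 members. The smallest adjusted p among members was 0.154, for C1qa, followed by 0.158 for Cd68. At an unadjusted p under 0.05, 14 of 74 members (18.9%) passed, against 14.0% of all features. The distance between the highest and the lowest strain had a median of 0.49 on the log2 scale over the members and 0.45 over all features, and it exceeded 1 for 3 members (4.05%), against 5.70% of all features. Those 3 were C1qa, Cd68 and B2m. The members as a group thus spread between strains about as far as other features did.

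**Figure D1:**
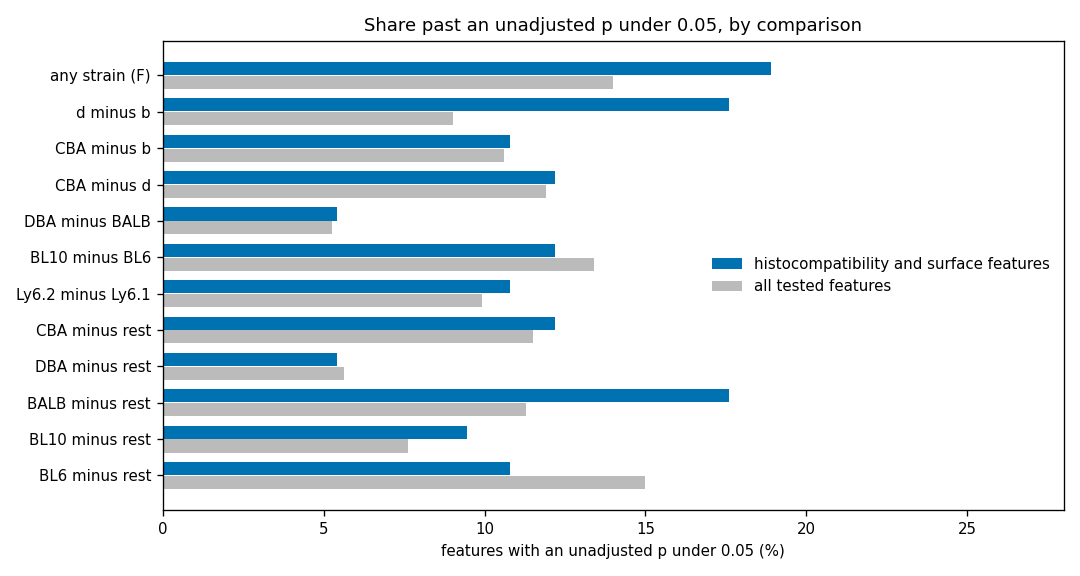
Share of features with an unadjusted p under 0.05 in each comparison (x axis, percent), for the 74 histocompatibility and surface features (blue) and all 7697 features (grey). The members' share is 17.6% against 9.03% for d minus b strains and lies between 5.41% and 18.9% elsewhere. It is below the grey bar for BL10 minus BL6, DBA minus rest and BL6 minus rest, and above it in the other comparisons.

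The strains of haplotype d were compared with those of haplotype b, since this is the contrast in which H2 alleles differ with 2 strains on either side. The same strains differ in the rest of the genome, so the H2 haplotype cannot be told apart from other strain differences. The words between haplotypes name only this grouping of strains. Again 0 of 74 members passed the FDR, which 0.117% of all features did. At an unadjusted p under 0.05 there were 13 members (17.6%), against 9.03% of all features, with 9 higher in the d strains (6.68% of all features) and 4 lower (2.35% of all features). The median difference over the members was -0.01 and over all features 0.01. These counts are a description, and no call is made from them.

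The 5 H2 features showed small differences between the haplotypes. H2-M9, a nonclassical class I gene, had a log2 ratio of d over b of -0.43 (BALB 2 over BL6 2), -0.30 (DBA 1 over BL6 1), -0.11 (BALB 2 over BL10 1), -0.04 (DBA 1 over BL10 2) and 0.24 (DBA 2 over BL6 1). DBA and BALB were thus lower on 4 of 5 arrays, and the fitted difference was -0.21 (SE 0.09, unadjusted p = 0.0497, adjusted p = 0.553). It came mostly from 1 of the duplicate spots, at -0.34 for the second and -0.09 for the first.

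H2-Q2, a Qa-region class I gene, had d over b ratios of -0.32 (BALB 2 over BL10 1), -0.31 (DBA 1 over BL10 2), -0.28 (BALB 2 over BL6 2), 0.04 (DBA 2 over BL6 1) and 0.55 (DBA 1 over BL6 1). The ratios lie on both sides of 0, and the fitted difference was -0.14 (SE 0.18). H2-Q5, of the same gene family, differed by 0.08 (SE 0.10), H2-M10.1, a class I gene of the M region known from the vomeronasal organ, by 0.22 (SE 0.13), and H2-Ke6 by -0.09 (SE 0.12). The Q genes are close copies of one another, so an oligonucleotide named for one may also bind the transcripts of others. Within haplotype d, DBA minus BALB was between -0.21 and 0.18 for the 5 features.

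B2m encodes the light chain that all class I molecules share. Its d over b ratios were -0.46 (DBA 1 over BL10 2), -0.36 (BALB 2 over BL10 1), -0.25 (BALB 2 over BL6 2), 0.32 (DBA 2 over BL6 1) and 0.55 (DBA 1 over BL6 1). For DBA the ratios were below 0 against BL10 2 and above 0 against BL6 1. BALB 2 was below 0 against both BL10 1 and BL6 2, so the sign did not follow the b strain throughout. The fitted d minus b difference was -0.17 (SE 0.18).

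**Figure D2:**
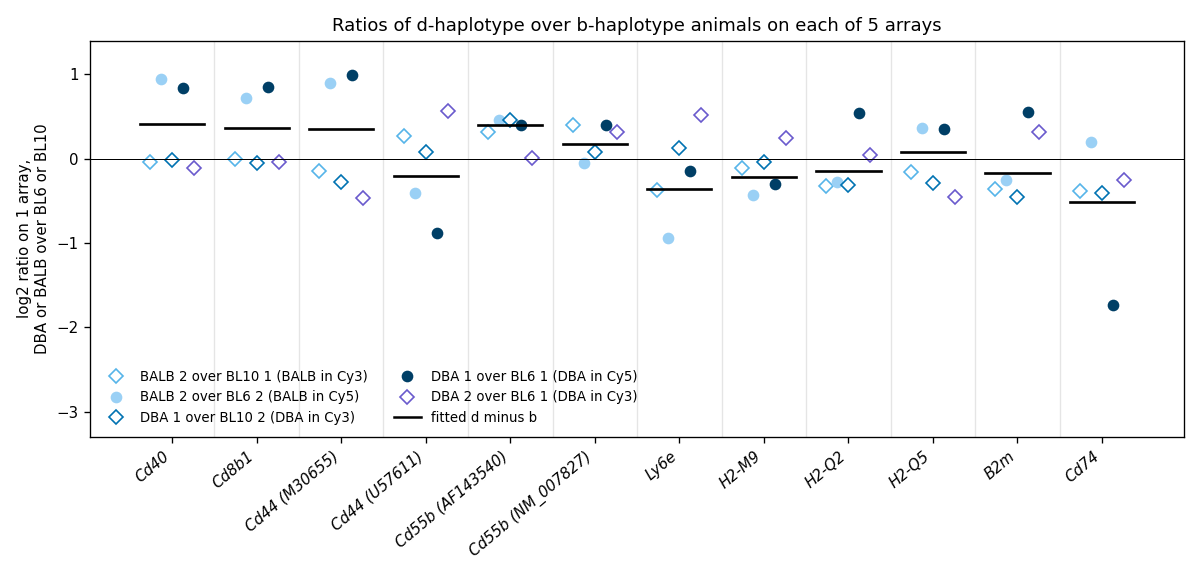
Log2 ratio of a d animal (DBA or BALB) over a b animal (BL6 or BL10) on each of 5 arrays (y axis) for 12 features, filled where the d animal was in Cy5 and open where it was in Cy3. Black lines are the fitted d minus b differences. Cd55b (AF143540) is the feature with no ratio below 0 here, and Cd74 has 1 array far below the others.

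BL10 and BL6 carry the same H2 haplotype, so this is a difference within a haplotype. It was measured with little precision, at a median size over the members of 0.20 beside a median SE of 0.22. On the arrays that link the strains through DBA 1 and BALB 2, the animal on the BL10 side was always in Cy5. The fitted values below thus rest on the estimated dye effect too. Of the members 0 passed the FDR (0.0650% of all features), and 9 had an unadjusted p under 0.05 (12.2% of members, 13.4% of all features), 7 of them higher in BL10 (5.78% of all features) and 2 lower (7.67% of all features). B2m was fitted 0.94 higher in BL10 than in BL6 (SE 0.34, unadjusted p = 0.0224, adjusted p = 0.307), at 0.86 from the first spot and 1.07 from the second. H2-Q2 pointed the same way at 0.59 (SE 0.36, unadjusted p = 0.131), and H2-Ke6 the opposite way at -0.60 (SE 0.23, unadjusted p = 0.0274). The other H2 differences were 0.20 for H2-M9, 0.14 for H2-M10.1 and -0.35 for H2-Q5. With the shared values of the 2 left-out arrays put back as labelled, B2m came to 0.29, H2-Ke6 to -0.24, H2-Q2 to -0.10, H2-M9 to -0.12, H2-M10.1 to -0.012 and H2-Q5 to 0.020, so that the last 4 changed sign.

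Fitted levels, each relative to the mean of the 5 strains, put B2m at 0.57 in CBA, -0.31 in DBA, -0.15 in BALB, 0.41 in BL10 and -0.53 in BL6, with SEs of 0.17 to 0.30. H2-Q2 had the same strains on top in the other order, with 0.24 in CBA and 0.31 in BL10, and BL6 was again lowest at -0.29. H2-M9 was highest in CBA at 0.43 (SE 0.16) and lowest in BALB at -0.30 (SE 0.11). H2-Q5 had its lowest level in CBA at -0.23 and its highest in BL6 at 0.20. Bars of 1 SE are no test of a difference between strains. Between the 5 strains B2m had an adjusted p of 0.477 (moderated F), and its unadjusted p was not under 0.05.

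**Figure D3:**
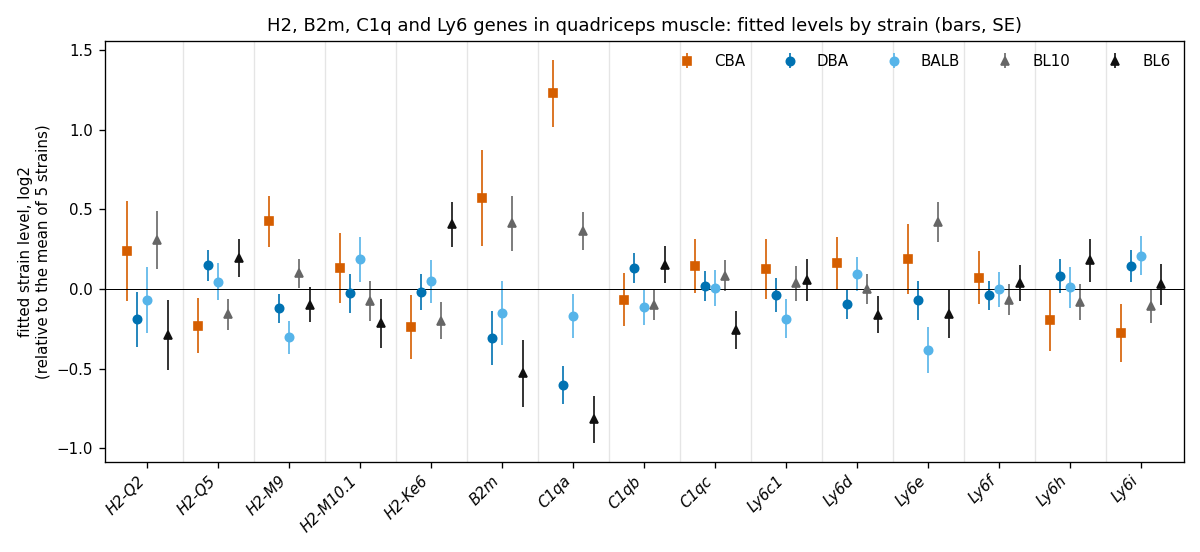
Fitted log2 level of 15 features in each strain relative to the mean of the 5 strains (y axis), with bars of 1 SE; squares are CBA, circles DBA and BALB, triangles BL10 and BL6. C1qa reaches 1.23 in CBA while C1qb and C1qc stay within 0.26 of 0 in every strain.

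CBA is the strain of haplotype k here. Against the b strains 0 members passed the FDR (0.00% of all features) and 8 had an unadjusted p under 0.05 (10.8%, against 10.6% of all features), and against the d strains 0 passed (0.00% of all features) and 9 had such a p (12.2%, against 11.9%). H2-M9 was 0.43 higher in CBA than in the b strains (SE 0.18) and 0.64 higher than in the d strains (SE 0.23, adjusted p = 0.384). On the arrays themselves, CBA 1 over BL10 1 gave 0.13 and CBA 2 over BL10 2 gave 0.06, and the dye effect of this feature was -0.24. With the shared values put back as labelled, the difference from the b strains was -0.0038.

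C1qa, C1qb and C1qc encode the chains of C1q, the first component of the classical complement pathway, which tissue macrophages make together. C1qa had the widest spread of all members, with fitted levels of 1.23 in CBA, -0.60 in DBA, -0.17 in BALB, 0.36 in BL10 and -0.82 in BL6 (SE 0.12 to 0.21). C1qb lay between -0.12 and 0.15 and C1qc between -0.26 and 0.14 in the same strains. Both spots of C1qa gave this order, with 1.11 and 1.37 in CBA. C1qb and C1qc thus did not share the wide spread of C1qa.

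The CBA value of C1qa was not read off an array directly. CBA 1 over BL10 1 had a ratio of -0.42 and CBA 2 over BL10 2 of 0.0019, so neither was clearly above 0. C1qa had a dye effect of -1.08 (SE 0.10), so that these ratios became 0.66 and 1.08 once the dye was allowed for, and CBA minus the other 4 strains was 1.54 (SE 0.26, adjusted p = 0.264). Without a dye term it was -0.44 (SE 0.71), and with the shared values of the left-out arrays as labelled -0.51 (SE 0.30). An adjusted p under 0.1 for a dye effect was found for 40 of 74 members and 4790 of 7697 features.

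Cd68, a lysosomal glycoprotein of macrophages, resembled C1qa in its fitted levels: 1.05 in CBA, -0.43 in DBA, -0.34 in BALB, 0.13 in BL10 and -0.41 in BL6 (SE 0.10 to 0.18). On the arrays CBA 1 over BL10 1 had a ratio of 0.53 and CBA 2 over BL10 2 of 0.30, so both were above 0 before the dye effect of -0.50 was allowed for. CBA minus the other strains was 1.31 (SE 0.23, adjusted p = 0.264), 1.32 from the first spot and 1.31 from the second. It dropped to 0.39 without a dye term (SE 0.37) and to -0.16 with all 10 arrays as labelled (SE 0.21).

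Other macrophage genes did not share this profile as a group. Of 13 measured features of a macrophage and myeloid list, 0 passed the FDR between the strains (0.130% of all features). Their median level was -0.10 in CBA, -0.05 in DBA, 0.05 in BALB, -0.05 in BL10 and 0.10 in BL6. CBA was at 0.63 for Ctss, a lysosomal protease, and 0.49 for Mrc1, the mannose receptor, but at -0.31 for Adgre1 (F4/80), -0.29 for Aif1 and -0.57 for Laptm5. Among Cd members, Cd33 was at 0.48 in CBA, while Cd86, a costimulator of antigen-presenting cells, was at -0.18. Cd14, the lipopolysaccharide coreceptor, was at 0.33 (SE 0.16), with 0.61 from the first spot and 0.07 from the second. Its ratios of CBA over BL10 were -0.16 and -0.10 before the dye effect was allowed for.

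**Figure D4:**
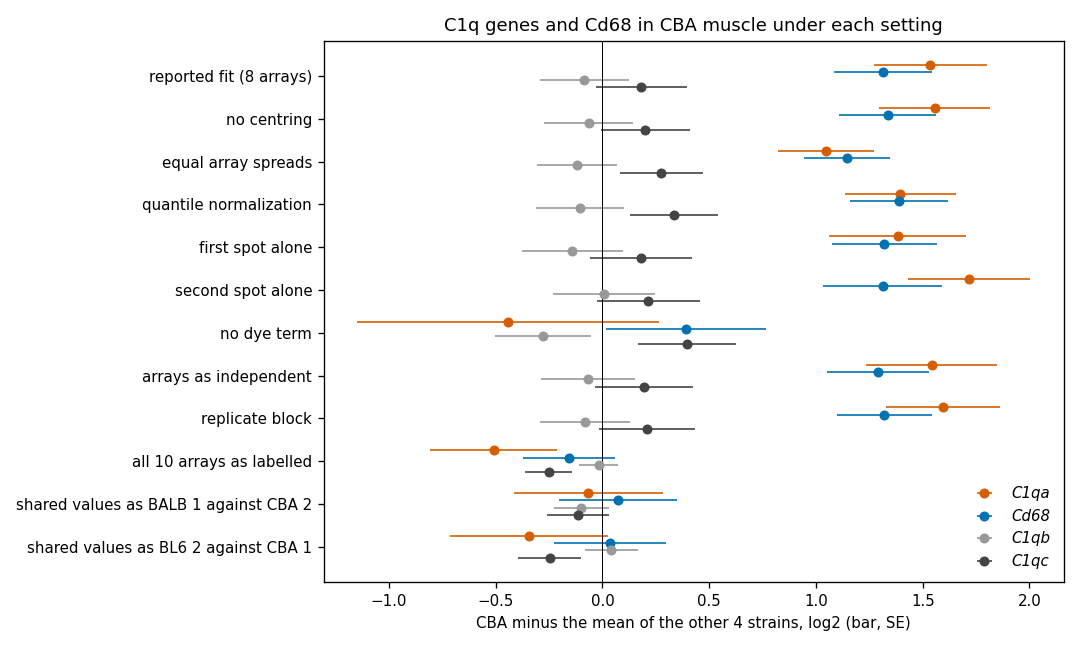
CBA minus the mean of the other 4 strains (x axis, log2, with bars of 1 SE) for C1qa, Cd68, C1qb and C1qc under each setting (rows). C1qa and Cd68 lie above 1 in the other settings, but at 0.39 or below without a dye term and where the values of the left-out arrays were put back.

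For each strain against the mean of the other 4, 0 members passed the FDR, where the background was 0.00% for CBA, 0.0130% for DBA, 0.00% for BALB, 0.0650% for BL6 and 0.0650% for BL10. An unadjusted p under 0.05 was found for 9 members in CBA (11.5% of all features), 4 in DBA (5.64%), 13 in BALB (11.3%), 8 in BL6 (15.0%) and 7 in BL10 (7.63%). As shares of the 74 members these are 12.2%, 5.41%, 17.6%, 10.8% and 9.46%. In BALB 7 of the 13 were higher (7.15% of all features), namely Cd2, Cd7, Cd8b1, Cd40, Cd52, Cd44 (M30655) and Cd36, and 6 were lower (4.16% of all features), namely H2-M9, Cd68, Ly6e, Cd46, Cd70 and Cd33. Not all T cell genes were higher in BALB, since Cd3g was at -0.21 (SE 0.18), Cd28 at -0.21 (SE 0.17) and Cd5 at -0.12 (SE 0.26). These values are close to their SE or below it, so a lower level is not shown. The Cd3g value is a mean of spots that opposed each other, at -0.53 and 0.12.

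Among the lymphocyte genes, Cd40 and Cd8b1 had the smallest p between haplotypes. Cd40 is the costimulatory receptor of B cells and macrophages. Its d over b ratios were 0.94 (BALB 2 over BL6 2) and 0.84 (DBA 1 over BL6 1) with the d animal in Cy5, and -0.12 (DBA 2 over BL6 1), -0.04 (BALB 2 over BL10 1) and -0.02 (DBA 1 over BL10 2) with it in Cy3. The dyes separate these arrays completely, and less the dye effect all 5 ratios lie between 0.26 and 0.56, with a fitted difference of 0.41 (SE 0.11, unadjusted p = 0.00372, adjusted p = 0.308).

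Cd8b1, the beta chain of the CD8 coreceptor, showed the same layout. Its ratios were 0.85 (DBA 1 over BL6 1) and 0.72 (BALB 2 over BL6 2) with the d animal in Cy5 and between -0.05 and 0.00 on the 3 other arrays, with a fitted difference of 0.37 (SE 0.10, adjusted p = 0.331). The alpha chain, Cd8a, differed by 0.19 (SE 0.11) at M12052 and 0.02 (SE 0.09) at AJ131778. The Cd8a features had opposite signs between BL10 and BL6, at 0.66 (SE 0.22) and -0.43 (SE 0.18), so no direction can be given for that gene.

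The other T cell genes were mixed between haplotypes. Cd2, an adhesion molecule of T cells, was 0.26 higher in the d strains (SE 0.11, unadjusted p = 0.0449), Cd4 0.18 (SE 0.10) and Cd7 0.18 (SE 0.12). Cd3g, a chain of the T cell receptor complex, was at -0.09 (SE 0.13), with -0.28 from the first spot and 0.11 from the second. Cd5, Cd6 and Cd28 lay between -0.05 and -0.02. Of the B cell genes, Cd72, an inhibitory coreceptor, was 0.30 higher in the d strains (SE 0.11, adjusted p = 0.465) with all 5 array ratios above 0, whereas Cd79a, a signalling chain of the B cell receptor, was at -0.31 (SE 0.17), Cd22 at -0.16 (SE 0.17) and Cd37 at -0.07 (SE 0.10).

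Cd74, the invariant chain of class II molecules, had d over b ratios of -1.74 (DBA 1 over BL6 1), -0.40 (DBA 1 over BL10 2), -0.38 (BALB 2 over BL10 1), -0.25 (DBA 2 over BL6 1) and 0.19 (BALB 2 over BL6 2). A single array was far below the others, and the fitted difference of -0.52 had an SE of 0.28 (unadjusted p = 0.101). The first spot gave -0.05 and the second -0.99.

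**Figure D5:**
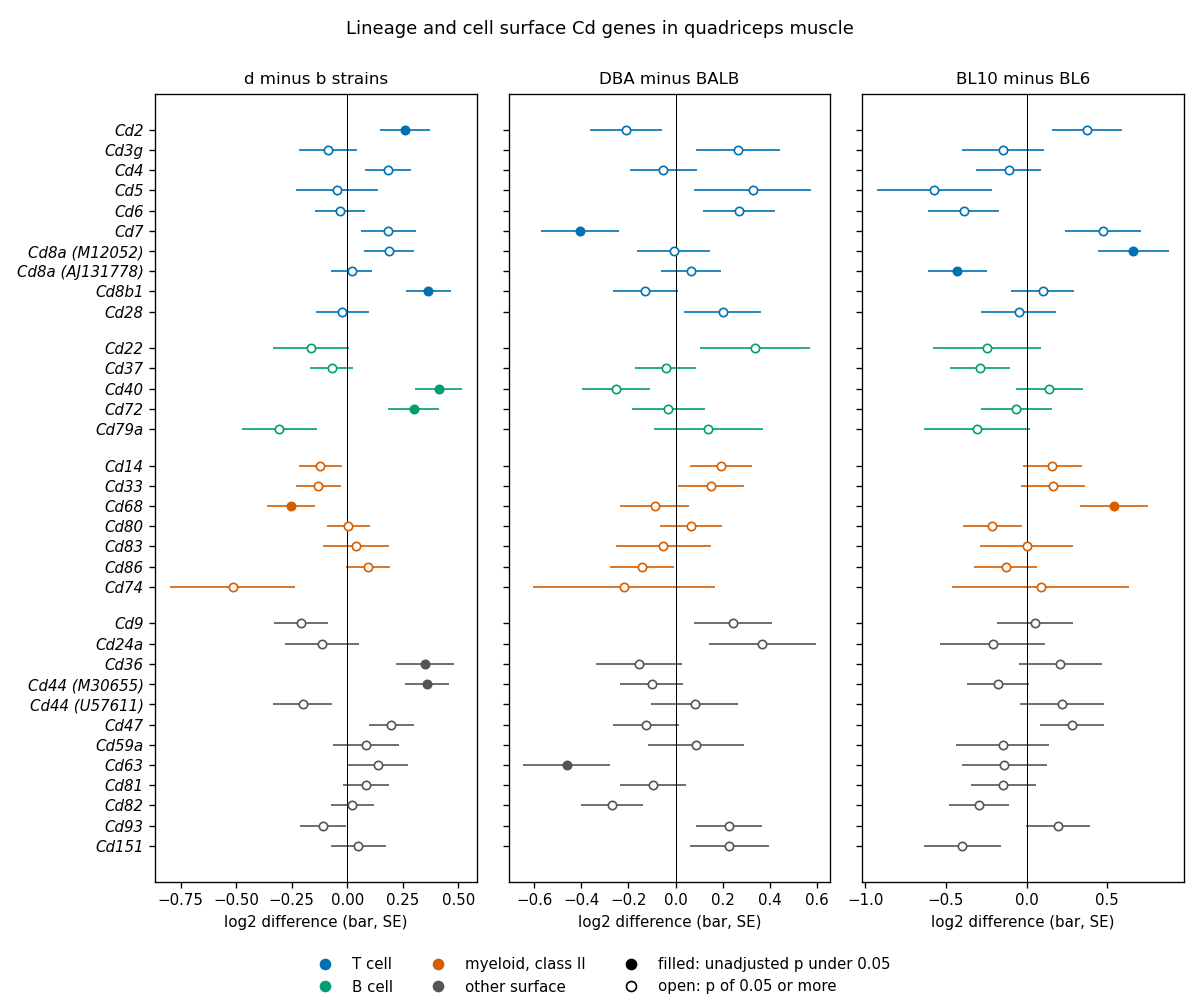
Log2 differences (x axis, with bars of 1 SE) of lineage and surface Cd features between d and b strains (left), DBA and BALB (middle) and BL10 and BL6 (right), grouped by cell type. Filled points have an unadjusted p under 0.05, among them Cd40, Cd8b1 and Cd72 on the left, and none passed the FDR of 10%.

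Of the surface molecules found beyond leukocytes, Cd36, a fatty acid transporter of muscle and endothelium, was 0.35 higher in the d strains (SE 0.13, adjusted p = 0.465). Of its 5 array ratios 3 were below 0 before the dye effect was allowed for and 0 after it, and the difference was 0.16 without a dye term, 0.15 without DBA 1 and 0.78 without BALB 2. Cd44, the hyaluronan receptor, differed by 0.36 at M30655 (SE 0.10, adjusted p = 0.331) and by -0.20 at U57611 (SE 0.13), and its features opposed each other in CBA too, at -0.53 and 0.53. Their dye effects also had opposite signs, 0.66 and -0.50. The tetraspanins Cd9, Cd63, Cd81, Cd82 and Cd151 lay between -0.21 and 0.14.

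Further members had a small unadjusted p in CBA or between BL10 and BL6. In CBA, Cd46 was 0.78 higher than in the other 4 strains (SE 0.21, adjusted p = 0.383), at 0.25 from the first spot and 1.35 from the second. It was also among the members with the smallest p in 5 other comparisons, d minus b included. These share animals and arrays, and in each the second spot gave the larger difference. For BL10 minus BL6 the first spot of Cd46 gave 0.09 and the second 0.97. Against the same 4 strains Cd33, a sialic acid receptor of myeloid cells, was 0.60 higher (SE 0.22), and Cd81 differed by -0.58 (SE 0.22) and Cd40lg, the ligand of CD40 on T cells, by -0.54 (SE 0.21). Without a dye term, CBA minus the b strains had the opposite sign for Cd33 (-0.07), Cd81 (0.30) and Cd40lg (0.0093). C1qtnf3, which shares the C1q-like domain and is known as a cytokine of fat and cartilage, was 0.67 higher in BL10 than in BL6 (SE 0.20, unadjusted p = 0.00782, adjusted p = 0.291), mostly from the second spot at 1.06, against 0.29 from the first. Beside it, the 7 fibroblast features had a median of 0.46 between BL10 and BL6. An unadjusted p under 0.05 was found for 2 that were higher in BL10, Col1a1 and Col3a1 (5.78% of all features). It was also found for 2 that were lower, Thy1 and a feature of Pdgfra (7.67% of all features). The part of these cells was not tested.

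The remaining lineage members differed little between haplotypes. Cd80, Cd83 and Cd86, which costimulate T cells, lay between 0.00 and 0.09, Cd93 of endothelium at -0.11, Cd24a at -0.11, Cd47, the signal that restrains phagocytosis, at 0.20 and Cd59a, an inhibitor of the membrane attack complex, at 0.09, with SEs of 0.10 to 0.17. Cd82, Cd2ap, C1ql3 and C1qb were among the 8 members with the smallest p between DBA and BALB, at -0.27, -0.26, 0.32 and 0.25, and none had an unadjusted p under 0.05. The smallest spread of all members was that of Cd5l, a protein secreted by macrophages, with 0.06 between its highest and its lowest strain. This is a mean of spots that opposed each other, with -0.37 and 0.42 in CBA and 0.20 and -0.26 in BL6.

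Of the complement regulators, a Cd55b feature and Cd46 had an unadjusted p under 0.05 between haplotypes, and the other Cd55b feature, both Cd55 features and Cd59a did not. The Cd55b feature AF143540, for a copy of the gene of decay-accelerating factor, had ratios of 0.46 (DBA 1 over BL10 2), 0.46 (BALB 2 over BL6 2), 0.40 (DBA 1 over BL6 1), 0.31 (BALB 2 over BL10 1) and 0.00 (DBA 2 over BL6 1). No array was below 0, and the fitted difference was 0.40 (SE 0.10, adjusted p = 0.308), an adjusted p that it shared with Cd40 as the smallest of a member in this contrast. The other Cd55b feature was at 0.17 (SE 0.16) and the Cd55 features at -0.22 (SE 0.11) and -0.11 (SE 0.13). Cd46, a cofactor for the cleavage of C3b, was at -0.28 (SE 0.10), with -0.18 from the first spot and -0.40 from the second.

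Muscle fibre markers were read in the same contrast. Of 8 skeletal muscle features 4 had an unadjusted p under 0.05, all higher in the d strains (6.68% of all features). Their median difference was 0.25, while 0 passed the FDR (0.117% of all features). The median was 0.02 for 13 macrophage and myeloid features, 0.04 for 7 of T and NK cells, 0.01 for 5 of B cells, 0.01 for 8 of neutrophils, -0.13 for 9 endothelial, 0.07 for 7 fibroblast, -0.02 for 5 adipocyte, -0.22 for 3 red cell and 0.01 for 4 Schwann cell features, with 0 past the FDR in each. The part of fibre content in the member differences was not tested.

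Ly6 genes on chromosome 15 encode small lipid-anchored surface proteins, of which some mark lymphocytes, monocytes or endothelium. The strains carrying Ly6.2 (DBA, BL10 and BL6) were set against those carrying Ly6.1 (CBA and BALB). Of the members 0 passed the FDR (0.0390% of all features) and 8 had an unadjusted p under 0.05 (10.8%, against 9.93% of all features), none of them a Ly6 gene. The 6 Ly6 features differed by -0.21 (Ly6d), -0.06 (Ly6f), 0.05 (Ly6c1), 0.06 (Ly6i), 0.15 (Ly6h) and 0.16 (Ly6e). The smallest adjusted p of a member, 0.109, was that of C1qa, at -0.88 (SE 0.13), followed by Cd68 at -0.59 (SE 0.11, adjusted p = 0.288), and CBA is 1 of the 2 Ly6.1 strains. These came to -0.10 for C1qa and -0.24 for Cd68 without a dye term, and to -0.063 and -0.045 with all 10 arrays as labelled. Among the others were Cd6, a T cell receptor for adhesion molecules, at 0.29 (SE 0.12, with 0.063 from the first spot and 0.50 from the second) and the Cd55b features at -0.45 (SE 0.16) and -0.25 (SE 0.11).

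Ly6e, an interferon-induced member of the family, followed another pattern. Its level was 0.19 in CBA, -0.07 in DBA, -0.38 in BALB, 0.42 in BL10 and -0.16 in BL6, so BL10 minus the other 4 strains was 0.53 (SE 0.16, unadjusted p = 0.00800, adjusted p = 0.601). The d over b ratios ran from -0.94 (BALB 2 over BL6 2) to 0.52 (DBA 2 over BL6 1), and the fitted difference of -0.36 (SE 0.13, adjusted p = 0.442) came to 0.03 without BALB 2. Ly6c1, a marker of monocytes and endothelium, and Ly6f had strain ranges of 0.31 and 0.14.

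Within haplotype d, DBA minus BALB left 0 members past the FDR (0.00% of all features) and 4 with an unadjusted p under 0.05 (5.41%, against 5.26% of all features). These were C1qa at -0.43 (SE 0.17), Cd63, a tetraspanin of late endosomes, at -0.46 (SE 0.18), Cd7 at -0.41 (SE 0.17) and Cd70, the ligand of CD27, at 0.30 (SE 0.13), with adjusted p of 0.854 for each. Leaving out 1 animal moved these values: without BALB 2 they were -0.77 for C1qa, -0.998 for Cd63 and -0.83 for Cd7, without BALB 1 they were -0.11, -0.056 and -0.071, and without BL6 1 Cd70 was 0.18. The members' median size of difference was 0.14 here, 0.13 between haplotypes and 0.20 between BL10 and BL6, beside 0.12, 0.10 and 0.22 over all features. The members' median SEs were 0.15, 0.11 and 0.22 in the same order. The contrasts thus differ in precision, and d minus b averages over strains on either side, so these sizes do not rank them.

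Genes that act with these members also held 0 features past the FDR (0.117% of all features for d minus b). The median d minus b difference was -0.09 over 18 features of antigen processing and class II control (among them Psmb8, Psmb9, Ctss and Ifi30), -0.01 over 22 of the interferon response, 0.01 over 11 of complement and -0.01 over 43 other features of the H2 region. At an unadjusted p under 0.05 the d strains were higher for 0, 2, 0 and 2 of them (6.68% of all features). They were lower for 0, 1, 0 and 1 (2.35% of all features).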

How the data were processed

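Per the study's methods, the authors scanned 10 two-dye arrays with GenePix Pro 3.0, subtracted local background and normalized by VSN. Each of the 15552 spots has a deposited value per array, the natural log of Cy5 over Cy3. The log base and direction were taken from the method and the dye labels, and spot brightness is not given. Duplicate spots were averaged to 7697 features (a control oligonucleotide of 80 features was averaged to 1), converted to log2 and centred on each array's median. A linear model was fitted with limma 3.58.1 (R 4.3.3) with strain terms, a gene-wise dye term and the animal as random unit (variance ratio 0.446), with 3 residual degrees of freedom. Benjamini-Hochberg adjustment ran over all features. The same steps were tested on simulated data. Nothing says whether the animals of a strain came from separate litters.

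The members and the gene lists were chosen with earlier results of these data known. Named were all H2, B2m, C1q chain and Ly6 members, a lineage list of Cd genes and the 8 members with the smallest p in each comparison. Alternatives changed the centring, scaling, spots, dye term, test, arrays and animals. Promoters are from RefSeq, and matplotlib 3.10.9 in Python 3.11.15 drew the figures.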

Additional observations from a re-analysis of the deposited data

How the results depend on the processing

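The count of members past the FDR stayed at 0 in every comparison without centring, from the first spot alone, without a dye term, with arrays as independent, with an ordinary test, with robust eBayes, at an FDR of 5%, with the replicate block (0), with haplotype terms, with all 10 arrays as labelled and with the shared values entered as BL6 2 against CBA 1. Equal array spreads gave 2 members between strains, Cd68 and Cd55b AF143540 (2.55% of all features). For BL10 minus the other 4 they gave 2, that Cd55b feature and Ly6e (2.09% of all features). Quantile normalization gave 2 between strains, C1qa and Cd68 (1.73% of all features). It also gave C1qa for Ly6.2 minus Ly6.1 (0.117% of all features) and for BL6 minus the other 4 (0.611%). The second spot alone gave C1qa for Ly6.2 minus Ly6.1 (0.143% of all features). Cd8a M12052 was called for BL10 minus BL6 (1.55% of all features) when the shared values stood for BALB 1 against CBA 2. The replicate numbers only name animals, so the block pairs nothing. Haplotype terms give no value within a haplotype, and no fit was possible without DBA 2. Spot brightness is not in these ratios, so its effect on dim members is unknown, and 2 animals a strain limit the precision.

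Leaving out 1 animal at a time gave 0 to 41 members between strains, 0 to 32 for d minus b, 0 to 19 for CBA minus b, 0 to 29 for CBA minus d, 0 to 27 for DBA minus BALB, 0 to 29 for BL10 minus BL6, 0 to 25 for Ly6.2 minus Ly6.1 and 0 to 43 over the strains against the other 4. The high counts came without BALB 1 (15 between strains), BALB 2 (40), BL6 1 (30) and DBA 1 (41), where 18.2%, 49.0%, 37.1% and 54.7% of all features passed as well and 1 or 2 residual degrees of freedom remained, against 3 with all animals. In the other comparisons the highest counts came without BALB 2 or without DBA 1, and there too many features outside the members passed. Such fits leave 1 animal in a strain, so these counts do not set the members apart from other features.

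Of 66 named gene differences under 24 settings, 1286 of 1482 values kept their sign and their side of the threshold, 127 kept the sign and passed it, and 69 changed sign. The cause was not tested. Without a dye term CBA minus b was -0.34 for C1qa, -0.070 for Cd33, 0.30 for Cd81, 0.62 for Cd44 (M30655) and 0.0093 for Cd40lg, and CBA minus d was -0.55, -0.064, 0.39, 0.49 and 0.016 for these genes. BL10 minus BL6 was then -0.25 for C1qa, -0.13 for Cd68, -0.11 for H2-M9, 0.29 for H2-Q5 and -0.0037 for H2-M10.1. The remaining values of that setting were -0.0081 for C1ql3 (Ly6.2 minus Ly6.1), -0.44 for C1qa in CBA, -0.056 for Cd44 (M30655) in BALB and -0.085 for H2-Q5 (d minus b).

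With all 10 arrays as labelled CBA minus b was -0.41 for C1qa, -0.14 for Cd68, 0.014 for Cd81, 0.13 for Cd44 (M30655) and -0.0038 for H2-M9, and CBA minus d was -0.61 for C1qa, -0.18 for Cd68 and 0.062 for Cd81. BL10 minus BL6 was -0.35 for C1qa, -0.51 for Cd68, -0.12 for H2-M9, 0.020 for H2-Q5, -0.10 for H2-Q2 and -0.012 for H2-M10.1. CBA against the other strains was -0.51 for C1qa and -0.16 for Cd68, and d minus b was -0.0078 for H2-Q5 and 0.038 for H2-Q2.

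With the shared values entered once as BALB 1 against CBA 2, CBA minus b was 0.12 for Cd44 (M30655), CBA minus d -0.20 for C1qa and 0.0027 for Cd81, BL10 minus BL6 -0.31 for Cd68 and -0.13 for H2-M9, CBA against the others -0.066 for C1qa, and d minus b -0.021 for H2-Q5 and 0.052 for H2-Q2. Entered as BL6 2 against CBA 1, C1qa was -0.27 (CBA minus b), -0.42 (CBA minus d) and -0.34 (CBA against the others). BL10 minus BL6 was then -0.30 for C1qa, -0.46 for Cd68, -0.092 for H2-M9, 0.0067 for H2-Q5, -0.071 for H2-Q2 and -0.040 for H2-M10.1, and d minus b was 0.0005 for H2-Q2.

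The first spot alone gave -0.37 for H2-M10.1 between BL10 and BL6. Without BALB 2, d minus b was 0.032 for Ly6e, -0.13 for H2-Q5, 0.58 for H2-Q2 and 0.49 for B2m, and BL10 minus BL6 was -0.032 for H2-M10.1. Without BL6 1, Cd81 was 0.038 (CBA minus b), Cd7 0.031 (DBA minus BALB), H2-Ke6 0.021 (d minus b) and H2-M9 -0.072 (BL10 minus BL6). Without BL6 2, d minus b was 0.12 for H2-Q2 and 0.11 for B2m, without DBA 1 it was 0.032 for H2-Ke6, and without BL10 1 H2-M10.1 was -0.096 between BL10 and BL6. The opposite ends of these ranges with 1 animal left out were, for d minus b, -0.52 for Ly6e, 0.20 for H2-Q5, -0.51 for H2-Q2, -0.40 for H2-Ke6 and -0.49 for B2m, for BL10 minus BL6 0.28 for H2-M9 and 1.23 for H2-M10.1, -0.72 for Cd81 and -0.83 for Cd7. B2m between BL10 and BL6 kept its sign in every setting that gave a value, from 0.29 to 1.69. So did Cd40, Cd8b1 and Cd55b (AF143540) between haplotypes, from 0.25 to 0.67. Other named differences kept theirs too, such as Cd72, Cd46 and H2-M10.1 between haplotypes, so a kept sign does not set these genes apart.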
